A study of Mus musculus with 13 samples.

Results

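The genes described here carry the symbols of subunits of the 5 complexes of oxidative phosphorylation. With them are 2 assembly factors of complex I whose symbols share the same stem. They were chosen by symbol and not by any measured value: a probe set with a single gene symbol starting with Nduf (complex I), Uqcr (complex III), Cox4 to Cox8 (complex IV) or Atp5 (complex V), or with the symbol Sdha, Sdhb, Sdhc or Sdhd (complex II). The rule found 72 genes among the 8388 genes that the arrays measure with such probe sets. Where several probe sets matched a gene, the brightest on average over the table stood for it, and 65 of the 70 genes found on both array versions had the same probe set in both. Cox5a was found only on the U74Av2 version and Ndufa4l2 only on the U74A version, so each version held 71 members. The symbol also set the complex, so Ndufa4l2 was counted under complex I and Cox7a2l under complex IV by symbol alone.

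Mouse embryonic stem (ES) cells were measured 3 days after leukaemia inhibitory factor (LIF), the cytokine that maintains their undifferentiated state, was taken away, either without a drug or with 10 µM of PD169316 or of SB203580. Both drugs are pyridinyl imidazole inhibitors of p38 kinases with the same core, and differ in a para substituent on a phenyl ring: PD169316 carries nitro there, SB203580 methylsulfinyl. The S1 line, which grows without feeder cells, had 2 control, 2 PD169316 and 1 SB203580 array on U74A, and 2 arrays of each condition on U74Av2. The D4 line, which depends on feeder cells but had been passaged without them before plating, had 1 control and 1 PD169316 array on U74A. All groups were in LIF-free medium, and RNA came from adherent cells only, so detached cells were not measured. The labels do not say that replicates were separate cultures, so every p-value measures the spread between arrays, possibly of technical origin only. With so few arrays the precision of every value is limited.

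The inner mitochondrial membrane carries these complexes. Complexes I and II pass electrons from NADH and succinate to ubiquinone, complex III passes them on to cytochrome c, complex IV reduces oxygen with them, and complex V uses the resulting proton gradient to make ATP. The proteins of the mitochondrial genome are outside this set: all members are nuclear genes, whose transcription has been linked to nuclear respiratory factors (NRF-1 and the ETS protein GABP), YY1 and Sp1. ES cells are known for a high rate of glycolysis and small, immature mitochondria, and respiration gains weight as they differentiate.

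Because the promoters of these genes are known for such sites, 4 of them are shown, each as the 250 bases before the annotated start in the RefSeq annotation of GRCm38.p6. Ndufb2 and Cox6b2 are the members with the smallest p-values against control for PD169316 and SB203580, and Atp5l and Cox6a1 are bright members that hold both NRF-1 and ETS letters. Capitals mark matches, on either strand, to GCGCATGC (the NRF-1 core), CCGGAAG (ETS), AAGATGGC (YY1), GGGCGG (the GC box of Sp1) or TATAAA (the TATA box).
Ndufb2, chr6:39592315-39592564, plus strand: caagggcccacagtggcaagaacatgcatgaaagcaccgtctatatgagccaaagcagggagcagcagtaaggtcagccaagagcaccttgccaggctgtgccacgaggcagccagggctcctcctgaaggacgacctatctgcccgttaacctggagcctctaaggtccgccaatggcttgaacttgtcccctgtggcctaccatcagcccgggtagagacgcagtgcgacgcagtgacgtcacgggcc
Cox6b2, chr7:4753095-4753344, minus strand: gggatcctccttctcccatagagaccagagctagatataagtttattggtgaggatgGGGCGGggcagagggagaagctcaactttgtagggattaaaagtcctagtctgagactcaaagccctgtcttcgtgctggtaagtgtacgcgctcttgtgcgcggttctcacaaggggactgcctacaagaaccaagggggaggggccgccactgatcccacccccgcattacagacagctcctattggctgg
Atp5l, chr9:44920743-44920992, minus strand: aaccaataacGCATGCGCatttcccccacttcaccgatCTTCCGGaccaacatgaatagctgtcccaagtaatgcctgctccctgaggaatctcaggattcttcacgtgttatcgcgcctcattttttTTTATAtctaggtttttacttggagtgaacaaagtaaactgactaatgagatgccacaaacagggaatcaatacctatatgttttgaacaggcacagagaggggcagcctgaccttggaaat
Cox6a1, chr5:115348959-115349208, minus strand: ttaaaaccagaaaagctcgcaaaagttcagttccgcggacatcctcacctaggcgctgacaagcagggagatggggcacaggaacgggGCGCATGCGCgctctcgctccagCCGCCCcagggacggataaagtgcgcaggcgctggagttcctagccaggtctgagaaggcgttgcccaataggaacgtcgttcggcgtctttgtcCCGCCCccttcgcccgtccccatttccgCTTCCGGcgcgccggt

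The Ndufb2 window held none of these letters, which says only that they are not in this window, and the Cox6b2 window held 1 GC box. In Atp5l the NRF-1 core lay 240 to 233 bases and the ETS letters 212 to 206 bases before the annotated start. In Cox6a1 the ETS letters lay 16 to 10 bases before the start, and the run GCGCATGCGC reads as the NRF-1 core in both orientations, which overlap. Of the 72 members, 58 had a promoter window of 300 bases in the RefSeq table, 250 before and 50 after the start. The NRF-1 core was found in 10 of them (17.2%, against 2.80% of the 27025 genes with a window), the ETS letters in 15 (25.9% against 9.12%) and the YY1 letters in 7 (12.1% against 2.88%). At least 1 of these 3 was found in 27 windows (46.6% against 13.8%). The GC box was present in 28 windows (48.3% against 35.9%) and the TATA box in 6 (10.3% against 14.2%), and the median GC content was 58.8% against 52.7%. These shares describe letters, not occupied sites.

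**Figure D1:**
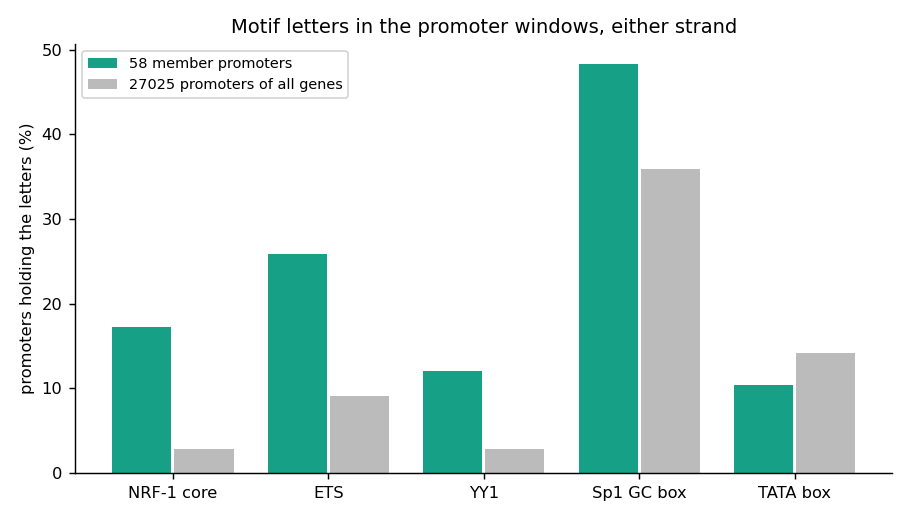
Percent of promoter windows of 300 bases that hold each motif on either strand, for the 58 members with a window and for all 27025 genes. The bars of the NRF-1 core (17.2% against 2.80%), ETS (25.9% against 9.12%) and YY1 (12.1% against 2.88%) are taller for the members, and that of the TATA box (10.3% against 14.2%) is shorter.

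Most members gave strong signals in untreated S1 cells. The signal is the deposited intensity per probe set, scaled by the authors to a target of 300 on every array. On U74Av2, 39 of 71 members had a mean control signal of at least 1000 and 63 of at least 100, and on U74A the counts were 40 and 56. The members held 2.10% to 2.83% of the summed signal of a U74A array and at most 2.26% of that of a U74Av2 array. Different probe sets bind with different strength, so these levels do not rank genes against each other, and the tables were scaled separately, so no level is compared across them. On U74A, Cox7a2l, Cox8b, Ndufa10, Ndufa4l2 and Ndufa6 were listed at 0 on all 7 arrays.

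In complex I, control means on U74Av2 ran from 17.9 for Ndufa12 to 9691 for Ndufa7, and both encode accessory subunits. In complex II the range was 186 for Sdha, the flavoprotein subunit that oxidizes succinate, to 2606 for Sdhc, a membrane anchor. All 7 members of complex III were bright, from 1806 for Uqcrc2, a core protein, to 6943 for Uqcrq, a small subunit. In complex IV the range was 22.1 for Cox6a2 to 6786 for Cox6a1, and in complex V 89.6 for Atp5j2 to 6041 for Atp5a1, the nucleotide-binding alpha subunit. Complex III was the 1 complex with every member at 1000 or more in both tables.

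Among forms known from particular tissues, the muscle forms Cox6a2 and Cox7a1 were dim in the controls, and the readings of Cox6b2, Cox8b and Cox8c differed between probe sets. Cox6a2, the heart and skeletal muscle form of its subunit, read 23.3 and 20.9 in the S1 controls of U74Av2 and 64.8 and 44.7 in those of U74A, beside a ubiquitous form, Cox6a1, that is measured by another probe set. It read 222.6 on a single PD169316 array of U74Av2 and 11.3 on the other, and 206 and 120.3 on the PD169316 arrays of U74A. Cox7a1, the muscle form of its subunit, read 11.9 and 82.4 in the U74Av2 controls and 90.3 and 28.7 in those of U74A. Summed over the list of heart and skeletal muscle markers, signals were 513 to 1100 on U74A and 663 to 1192 on U74Av2, with 513 to 951 in the S1 controls and 681 to 1100 under PD169316 on U74A, and 684 to 1192 and 758 to 827 in the same groups on U74Av2. Cox8c and Cox6b2, which are known as testis forms, were above 100 on every array by their brightest probe set. Cox8c read 276.5 to 437.2 over the 7 arrays of U74A and 197 to 533.3 over the 6 of U74Av2, where a second probe set of it averaged 9.75. The brightest Cox6b2 probe set averaged 520 on U74A and 379 on U74Av2. Its other probe sets averaged 103 and 0 on U74A and 68.8 and 55.4 on U74Av2. Cox8b, a muscle form listed at 0 on U74A, read 210.4 to 378.8 on U74Av2 by the brighter of its probe sets, while the other averaged 33.3, and the partner Cox8a stayed below 100 on every array. Among the genes for subunit c of complex V, which differ in their import signal, Atp5g2 read 643.5 to 807.4 and Atp5g1 74.8 to 211.5 on U74Av2.

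The labelled cell type was checked on 8 ES cell markers. The factor Pou5f1 read 3450 to 6606 on U74A and 4130 to 9165 on U74Av2, while Nanog and Dppa5a were listed at 0 on all arrays of U74A. On U74Av2 the summed signal of the markers was lower with both compounds. It was 37400 and 38591 in the controls, 24961 and 27978 under PD169316 and 29492 and 25612 under SB203580. On U74A it was 20936 and 15486 in the S1 controls, 12909 and 10118 under PD169316 and 18187 under SB203580, between the controls. The D4 control and PD169316 arrays had 11748 and 12326, with no fall in the sum. Single markers did not all follow the sum. With PD169316 on U74Av2, Nanog, Sox2 and Zfp42 overlapped the controls, while the other markers lay below both controls. With SB203580 on U74Av2, Utf1 read 7648 and 8348 against 7245 and 7741 in the controls. Pou5f1 read 7408 and 4130 there, against 8217 and 9165. Sums of the feeder fibroblast list were 193 to 1062 on U74A and 725 to 1383 on U74Av2. The part of these shifts in the ratios below was not tested, and in bulk RNA fewer cells of a type and less RNA per cell cannot be told apart.

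The first comparison asked how PD169316 changed the members in S1 cells. Signals under 32 were set to 32, and a probe set was tested with limma where it reached a signal of 100 on 2 or more arrays, which kept 60 members on U74A, 63 on U74Av2 and 58 in both. Of the untested members with a signal, 6 on U74A and 8 on U74Av2 lay below this filter. No member changed by the threshold of an adjusted p of 0.05 over all probe sets tested, on U74A (background 0.0176% of 5681 probe sets), on U74Av2 (0.128% of 7050) or over both tables (1.88% of 5369). At an unadjusted p of 0.05, 3 members were higher on U74A (background 4.65%, both directions), 2 on U74Av2 (8.35%) and 5 over both tables (11.6%), and none was lower in any of these tests. The labels do not say whether both array versions received the same RNA, and the combined test treats the tables as independent, although its z scores correlated across probe sets with r 0.429 for PD169316 against control, 0.207 for SB203580 against control and 0.441 between the compounds. Allowing for this, 4, 1 and 3 members were under an unadjusted p of 0.05 in these comparisons instead of 5, 1 and 5, none passed the adjusted threshold, and probe sets past it fell from 101 to 12, stayed at 0 and fell from 37 to 6.

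Ndufb2, an accessory subunit in the membrane arm of complex I, had the smallest p of the 58 members. Its signal was 2365 and 1666 in the U74A controls and 3192 and 4342 under PD169316, and 2534 and 2515 in the U74Av2 controls against 4309 and 3492. The groups did not overlap in either table. Most genes for which this is said here and below were picked by p-value or after their values were seen. The share of all probe sets without overlap was not counted, so a lack of overlap describes the readings and is no further support. The mean log2 ratio over both tables was 0.76 ± 0.21 (SE), a fold of 1.70, with an adjusted p of 0.0742 in the combined limma test. With the replicate number as a block, which here stands for a shared hybridization day, the adjusted p was 0.0276 in the limma test, and with quantile normalization it was 0.0281. Allowing for the correlation of both tables gave 0.377, and the 23 alternatives together ran from 0.0276 to 0.377, with 2 of them under the threshold. A second probe set of Ndufb2 gave log2 ratios of 0.54 on U74A and -0.04 on U74Av2, against 0.91 and 0.62 for the brighter probe set. The probe sets that stood for Ndufb2, Uqcrb, Cox6b2, Cox4i1, Atp5md, Ndufb5, Cox6a1, Atp5g2 and Uqcrc2, among others, have names ending in f_at. This marks probes shared by a family of similar sequences, so their signal may include related transcripts. In all, 19 of 71 members on U74A and 18 of 71 on U74Av2 had an f, s, i, r or g before the ending at, among them Sdhb (s_at) and Cox6b1 (r_at).

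Ndufa13, a complex I subunit also known as GRIM-19, read 558.1 and 613.3 in the U74A controls and 831.1 and 1039 under PD169316. On U74Av2 it read 445.8 and 534.1 in the controls and 931 and 767.4 under PD169316. Every PD169316 array lay above every control array of its table, and the combined limma test gave a log2 ratio of 0.73 ± 0.22 (SE) with an adjusted p of 0.122. Uqcrb, the ubiquinone-binding protein of complex III, read 2156 and 1937 in the U74A controls and 3385 and 3642 under PD169316. On U74Av2 it read 2211 and 2078 against 3265 and 2335, again without overlap, and its log2 ratio of 0.57 ± 0.19 (SE) had an adjusted p of 0.211 in the combined limma test. The accessory complex I subunit Ndufb9 (log2 ratio 0.56) and Atp5md, a small subunit of complex V (0.53), were the other members under an unadjusted p of 0.05, with limma adjusted p-values of 0.258 and 0.294.

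Cox4i1, the ubiquitous form of subunit 4 of complex IV, was the member with the smallest p among those that were lower. It read 271.3 and 201.8 in the U74A controls and 221.2 and 75.6 under PD169316, and 249.7 and 228.9 in the U74Av2 controls against 131.5 and 212. The groups overlapped on U74A and did not on U74Av2, and the combined log2 ratio was -0.69 ± 0.37 (SE, limma adjusted p 0.487). It was -0.30 without the second PD169316 array of U74A and -1.07 without the first. A second Cox4i1 probe set gave log2 ratios of -0.30 on U74A and 0.27 on U74Av2. Ndufv1, which binds NADH at the tip of complex I, had a log2 ratio of -0.31 ± 0.19 (SE) and Atp5a1 of -0.32 ± 0.19 (SE), with limma adjusted p-values of 0.574 and 0.587.

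**Figure D2:**
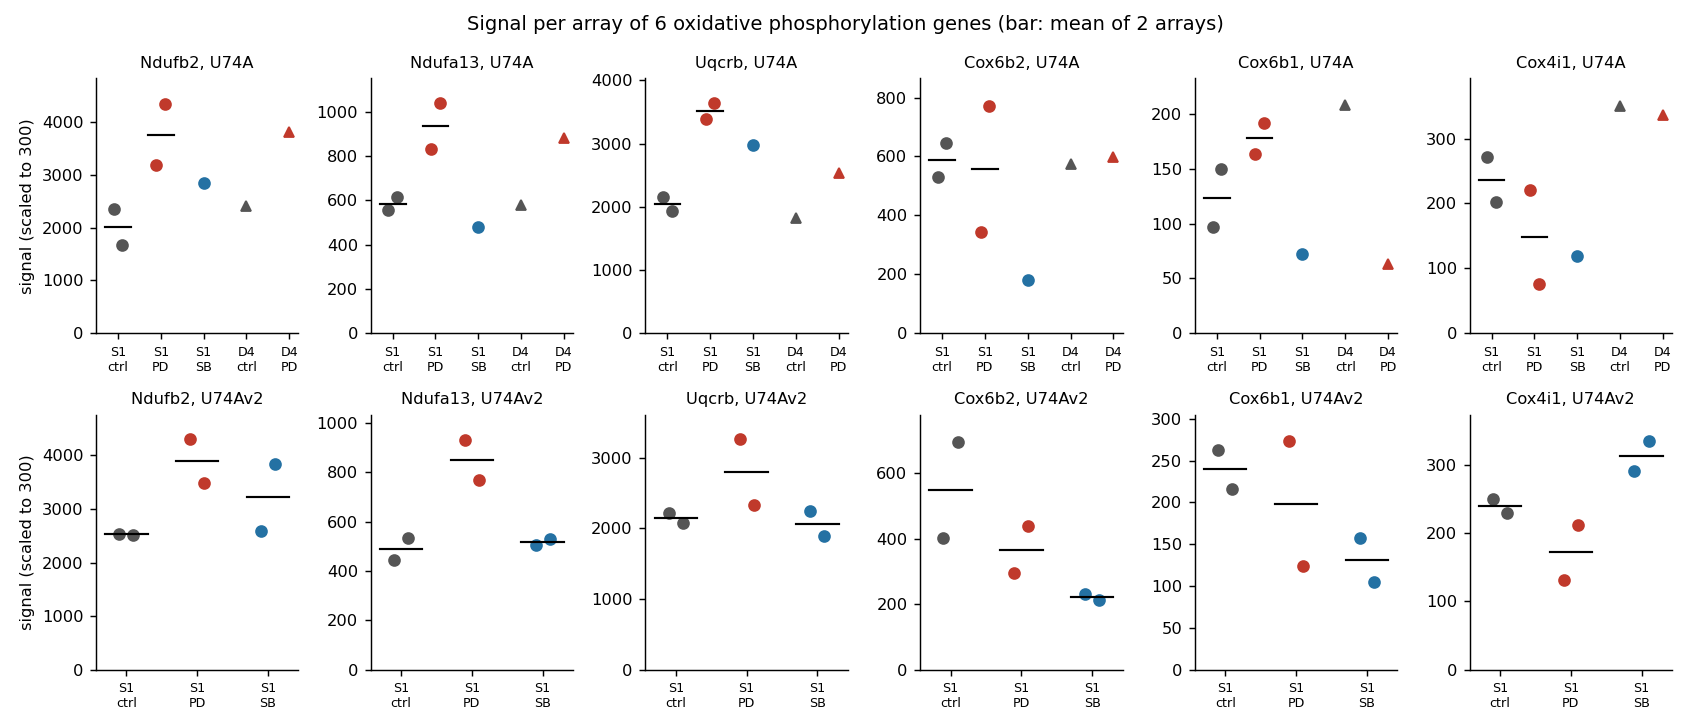
Signal, in scaled intensity units on a linear axis from 0, of Ndufb2, Ndufa13, Uqcrb, Cox6b2, Cox6b1 and Cox4i1 on every array of U74A (top) and U74Av2 (bottom). Points are arrays, triangles are D4 cells, and bars are means of 2 arrays. Both PD169316 arrays of S1 lie above both controls for Ndufb2, Ndufa13 and Uqcrb in each table, and every SB203580 array lies below every control for Cox6b2 and Cox6b1.

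By complex, 21 of 26 tested members of complex I were higher with PD169316 on U74A, with a median log2 ratio of 0.35, and 17 of 28 on U74Av2, with a median of 0.11. Of the 26 complex I members tested in both tables, 14 were higher in both and 4 lower in both. In complex II, Sdhb, the iron-sulfur subunit, was higher in both tables (log2 ratio 0.42 on U74A and 0.41 on U74Av2), while Sdha, Sdhc and Sdhd lay between -0.23 and -0.01 in both. Sdhb read 1195 and 1608 in the U74A controls against 1901 and 1808 under PD169316, and 1108 and 1488 in those of U74Av2 against 1683 and 1736. No control array reached a treated array of its table, and the limma adjusted p over both tables was 0.459. In complex III the medians were 0.12 on U74A and -0.01 on U74Av2, in complex IV 0.31 and 0.03, and in complex V 0.12 and 0.16.

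Over all tested members the median log2 ratio was 0.26 on U74A (41 of 60 higher), 0.07 on U74Av2 (35 of 63) and 0.15 over both tables (38 of 58). The medians of all probe sets tested were 0.04, 0.00 and 0.03. Bright probe sets differ in this from dim ones, and for probe sets with a mean log2 signal of 10 or more the medians were 0.30 for members and -0.04 for all on U74A, and 0.04 and -0.09 on U74Av2. These are descriptions of a list and carry no test. Single arrays moved them by more than 1.5 times. The U74A median was 0.09 without the second control and 0.16 without the second PD169316 array, and the U74Av2 median was -0.02 without the first PD169316 array and 0.13 without the second. Over both tables it lay between 0.03 without the second U74A control and 0.24 without the first.

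**Figure D3:**
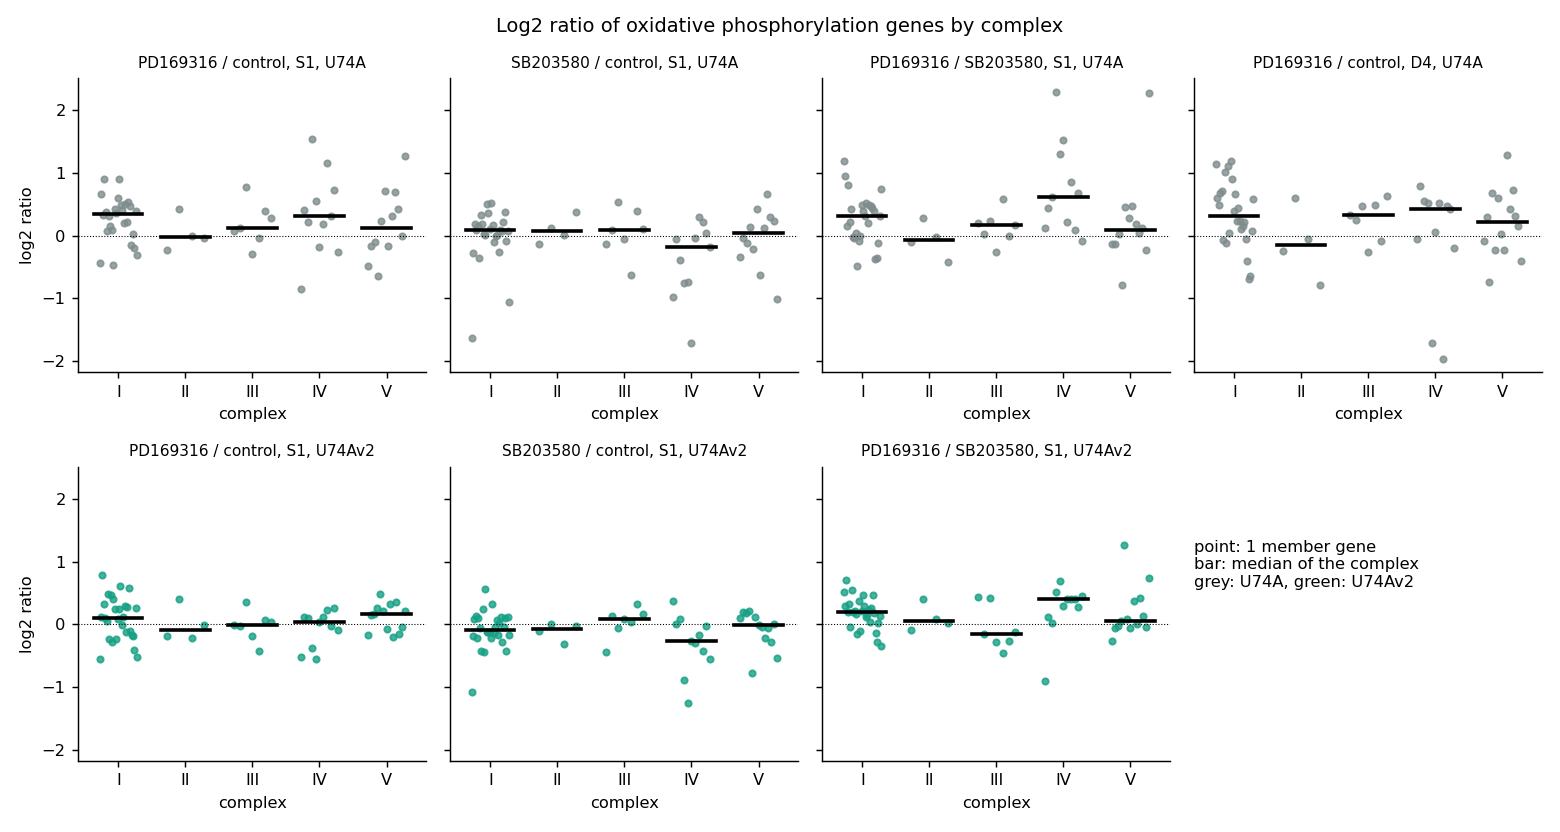
Log2 ratio of each tested member, by complex I to V, for PD169316 against control and SB203580 against control in S1 on each table, for PD169316 against SB203580 in S1, and for PD169316 against control in D4. Points are genes and bars are medians. The median of complex I under PD169316 is 0.35 on U74A and 0.11 on U74Av2, and that of complex IV under SB203580 is -0.17 and -0.27.

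Pairs of control and PD169316 arrays hybridized on the same day differed in size. On U74A the median log2 ratio of the members was 0.03 on day 3 (34 of 60 higher) and 0.41 on day 2 (48 of 60), and on U74Av2 it was 0.12 on day 3 (40 of 63) and 0.01 on day 5 (32 of 63). The U74A median of 0.26 thus lay between a pair near 0 and a pair at 0.41. Between the control arrays themselves the members differed by a median of 0.50 log2 units on U74A, with 9 of 60 past 1, and by 0.24 on U74Av2, with 0 of 63 past 1. The day 3 controls also stood apart in the 3' to 5' ratio of Actb, at 3.31 and 3.21 against 1.46 to 2.25 on the other arrays, and without both the U74A median was 0.31 and that of U74Av2 was 0.07.

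**Figure D4:**
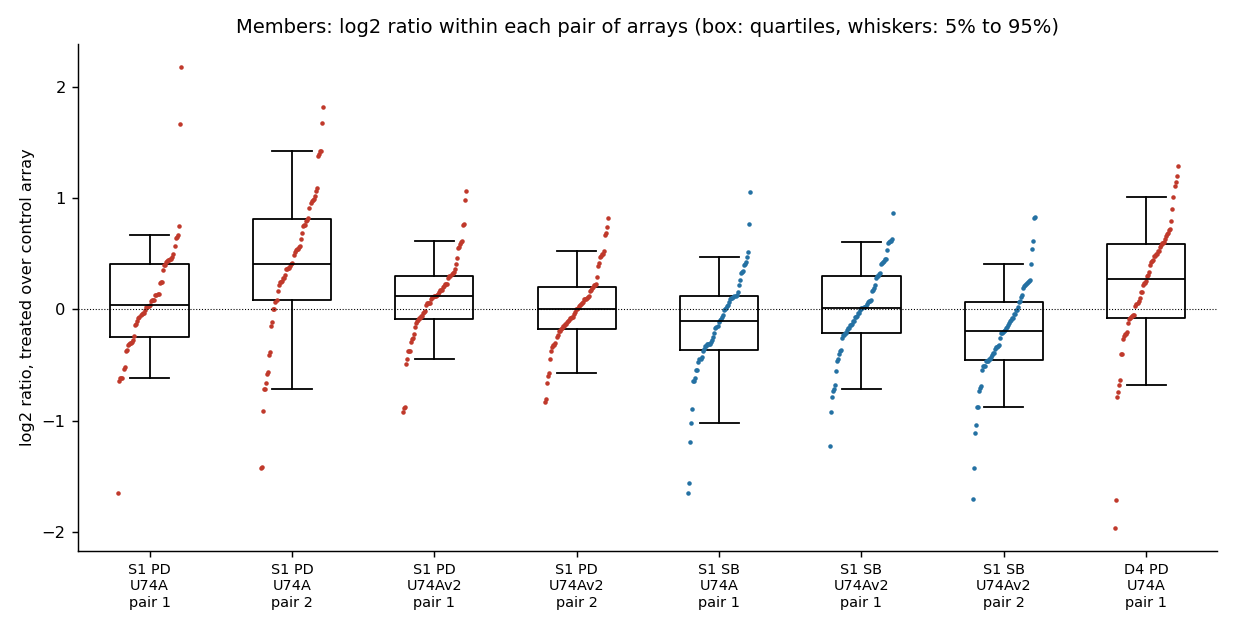
Log2 ratio of every tested member for each pair of a treated and a control array, numbered by replicate within the table. Points are genes, boxes are quartiles with the median, and whiskers run from 5% to 95% of the members. For PD169316 the medians are 0.03 and 0.41 on U74A and 0.12 and 0.01 on U74Av2.

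In all 4 pairs, 14 of the 58 members tested in both tables (24.1%) were higher with PD169316, against 12.6% of all probe sets. They were Ndufa13, Ndufb2, Ndufb5, Ndufb8, Ndufb9, Ndufb10, Ndufb11 and Ndufv2 of complex I, Sdhb, Uqcrb, Cox5b, and Atp5g2, Atp5md and Atp5pb of complex V. Cox4i1, Ndufv1, Ndufv3 and Uqcrc1 were lower in all 4 pairs, which is 6.90% of the members against 10.6% of all probe sets. Ndufb5, an accessory subunit of the membrane arm, read 3791 and 4403 in the U74A controls against 4832 and 6166, and 4182 and 4014 in those of U74Av2 against 4535 and 4358. Cox5b, the zinc-binding subunit of complex IV, read 4511 and 4784 against 5363 and 7044 on U74A and 4906 and 4509 against 5102 and 5149 on U74Av2. In both genes the groups overlapped in neither table, but both were taken from the members higher in all 4 pairs, so this largely follows from their choice.

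SB203580 was compared with the same control arrays, so its ratios are not independent of those of PD169316. No member passed the adjusted threshold on U74A (background 0%), on U74Av2 (0%) or over both tables (0%) in the limma tests. At an unadjusted p of 0.05, 1 member was lower on U74A (background 1.5%), 1 was higher and 1 lower on U74Av2 (4.75%), and 1 was lower over both tables (4.64%).

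The lower member in each case was Cox6b2, a form of the complex IV subunit that bridges its monomers. It read 528.9 and 647 in the U74A controls and 178.7 under SB203580, and 401.7 and 695.8 in the U74Av2 controls against 231.9 and 213.5. All 3 treated arrays lay below every control array of their table. The log2 ratio over both tables was -1.48 ± 0.34 (SE), 2.79-fold lower, with an unadjusted p of 0.000238 and an adjusted p of 0.256 in the combined limma test, and the ratio ran from -1.68 to -1.28 when each array was left out in turn. Dimmer Cox6b2 probe sets gave -1.40 on U74A and -0.89 and -0.53 on U74Av2. Under PD169316 the gene read 344.7 and 771.5 on U74A and 293.9 and 439.5 on U74Av2, which overlapped the controls in both tables.

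The partner form Cox6b1 was lower as well, at 97 and 149.4 in the U74A controls and 71.9 under SB203580, and 262.8 and 216.2 in the U74Av2 controls against 157.5 and 105. The groups did not overlap, and the log2 ratio was -0.82 ± 0.43 (SE, limma adjusted p 0.995). Ndufa7 read 9963 and 10850 in the U74A controls and 8146 under SB203580, and 9889 and 9494 in the U74Av2 controls against 7505 and 6889, with a log2 ratio of -0.39 ± 0.21 (SE, limma adjusted p 0.995). Ndufab1, the mitochondrial acyl carrier protein that sits in complex I, was the member with the higher signal on U74Av2, at 2481 and 2133 in the controls and 3059 and 3766 under SB203580. On U74A it read 2854 and 2840 in the controls and 2918 under SB203580, and the combined log2 ratio was 0.30 ± 0.22 (SE, limma adjusted p 0.995). Ndufb2 had a log2 ratio of 0.42 ± 0.24 (SE) with SB203580, and Uqcrh, the hinge protein of complex III, of 0.36 ± 0.33 (SE), which was 0.03 without the second U74A control and 0.70 without the first.

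Over both tables the median log2 ratio of the members was -0.05 (26 of 58 higher), against -0.00 for all probe sets. Complex IV had the lowest median of the 5 complexes in both tables, -0.17 on U74A and -0.27 on U74Av2, with 3 of 11 tested members higher in each. All 9 complex IV members tested in both had a mean log2 ratio below 0, from -1.48 for Cox6b2 to -0.02 for Cox5b, but only 4 of the 9 were lower in each table. In all 3 pairs of a treated and a control array, 3 members were higher (5.17%, background 16.2%), namely Ndufab1, Ndufb2 and Ndufb9. In the same pairs 14 were lower (24.1%, background 15.4%): Ndufa1, Ndufa3, Ndufa7, Ndufc1, Ndufs1, Ndufv1, Ndufv3, Uqcr10, Cox6b1, Cox6b2, Cox7a2, Cox7b, Atp5mpl and Atp5pb. The second SB203580 array of U74Av2, hybridized on a day of its own, had the lowest members of that table relative to their own means: its pair had a median log2 ratio of -0.19 (18 of 63 higher), against 0.01 for the first array (32 of 63). That array also had the highest 3' to 5' ratio of Gapdh, at 1.71 against 0.874 to 1.58 on the other arrays of both tables, and the part of this in its low values was not tested. Without the first SB203580 array the U74Av2 median was -0.18, and -0.04 with both.

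**Figure D5:**
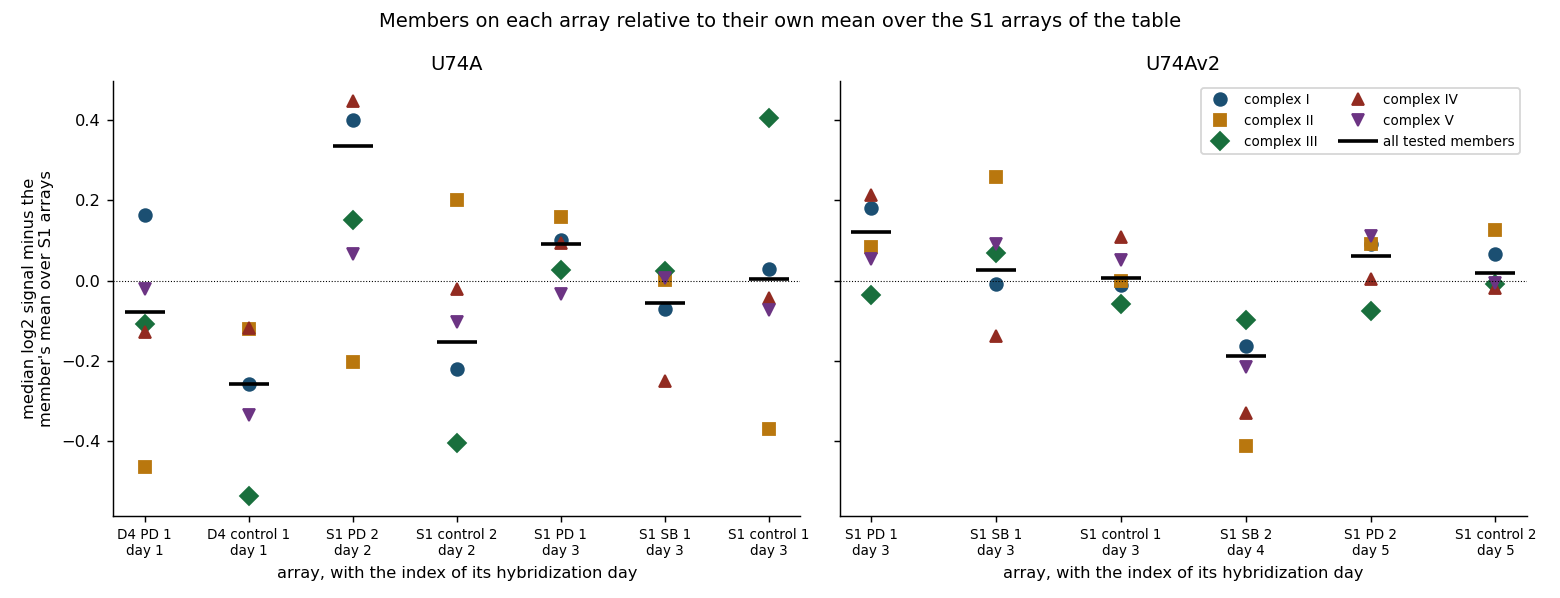
Median over the tested members of each complex of the log2 signal minus the member's own mean over the S1 arrays of the table, for every array in the order of hybridization days. Bars are medians over all tested members. The second PD169316 array of U74A is highest at 0.33, the D4 control lowest at -0.26, and the second SB203580 array of U74Av2 lies at -0.19.

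Set against each other at the same dose and time, the compounds differed in no member past the adjusted threshold in the limma tests, on U74A (background 0%), on U74Av2 (0.0426%) or over both tables (0.689%). This is a single pair of compounds, and p-values were adjusted over all probe sets. At an unadjusted p of 0.05, 1 member was higher with PD169316 on U74A (background 3.75%), 2 were higher and 1 lower on U74Av2 (7.3%), and 5 were higher over both tables (10.7%). Ndufa13 had the smallest p: the nitro compound gave 831.1 and 1039 on U74A against 481.6 with the methylsulfinyl compound, and 931 and 767.4 on U74Av2 against 504.2 and 530.4. Its log2 difference was 0.83 ± 0.26 (SE) with a limma adjusted p of 0.162, and its 95% interval was -0.03 to 1.92 on U74A and 0.09 to 1.33 on U74Av2. The other 4 were Cox6b2, Atp5pb, a subunit of the peripheral stalk of complex V, Cox7b (log2 difference 0.54) and Ndufb11 (0.48). Cox6b2 differed by 1.11 ± 0.34 (SE, limma adjusted p 0.188) and Atp5pb by 1.52 ± 0.55 (SE, limma adjusted p 0.23). Dimmer Cox6b2 probe sets gave 0.68 on U74A and -0.69 and 0.54 on U74Av2.

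Atp5pb rested on dim readings, of 188.1 and 129.5 under PD169316 and 8.7 under SB203580 on U74A and of 249.4 and 269.4 against 113.3 and 210 on U74Av2. Cox4i1 was the member with the smallest p among those lower with PD169316, at a log2 difference of -0.39 ± 0.43 (SE), followed by Ndufs3, a core subunit of complex I (-0.31 ± 0.25, SE), and Uqcrc1, a core protein of complex III (-0.27 ± 0.21, SE). The U74A interval of Cox4i1 ran from -1.65 to 1.90 and that of U74Av2 from -1.70 to -0.10.

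The median log2 difference of the members between the compounds was 0.21 on U74A (43 of 60 higher with PD169316), 0.17 on U74Av2 (45 of 63) and 0.21 over both tables (43 of 58). All probe sets tested had medians of 0.06, 0.05 and 0.04. With each array left out in turn the members' median over both tables ran from 0.10 to 0.24. Complex IV had 8 of 9 members higher with PD169316 and a median of 0.28 over both tables, and complex I 20 of 26 and 0.22. A miss of the threshold does not show that the compounds act alike. The 95% interval of the difference lay within 1 log2 unit either way for 43 of 63 members on U74Av2 and for 9 of 60 on U74A, and its median half-width was 0.58 and 0.98. For PD169316 against control the interval lay within 1 unit for 44 of 63 members on U74Av2 and 18 of 60 on U74A, and for SB203580 against control for 50 of 63 and 11 of 60.

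In D4 cells PD169316 was measured on a single array against a single control array, and the spread came from the S1 arrays of the same table in a limma fit of all 7 arrays, so the D4 arrays are assumed to vary like those of S1. No member of the 62 tested passed the adjusted threshold (background 0%), and 1 was under an unadjusted p of 0.05 (background 3.84%). That was Ndufab1, which read 1997 in the control and 4323 with PD169316, a log2 ratio of 1.11 ± 0.41 (SE) with a 95% interval of 0.18 to 2.05 and a limma adjusted p of 1. The largest ratios belonged to dim members: Atp5k, a small subunit of complex V, read 106.1 and 260.2, the assembly factor Ndufaf4 102.3 and 234.4, and Ndufa1, an accessory subunit of complex I, 22 and 70.7. At the other end Cox7a1 read 124.8 and 17.9, Cox6b1 208.1 and 63.3, and Sdhd, a membrane anchor of complex II, 1167 and 675.4.

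Several members named above for PD169316 in S1 read as follows in D4. Ndufb2 read 2416 in the control and 3823 with PD169316 (log2 ratio 0.66), Ndufa13 580.8 and 884.2 (0.61), and Uqcrb 1827 and 2542 (0.48). Sdhb read 1470 and 2226 (0.60), and the other Sdh genes lay between -0.79 and -0.05. Cox4i1 (-0.06), Ndufv1 (-0.64) and Atp5a1 (-0.08), lower over both tables in S1, were lower in D4 too. Atp5pb, higher in all S1 pairs, went the other way in D4, at 391.6 and 296.8 (-0.40). Ndufv3, lower in all S1 pairs, was higher in D4 (0.58). The median log2 ratio of the members was 0.28 (42 of 62 higher) against -0.01 for all probe sets, and by complex it was 0.32 for I (20 of 26), -0.15 for II (1 of 4), 0.34 for III (5 of 7), 0.43 for IV (7 of 11) and 0.23 for V (9 of 14). Among bright probe sets the medians were 0.32 for members and 0.07 for all. No interval lay within 1 log2 unit either way, and the median half-width was 1.13.

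The PD169316 effect in D4 minus that in S1 on U74A tested whether the lines responded differently. No member passed the adjusted threshold (background 0%), and 0 of 62 were under an unadjusted p of 0.05 (background 2.48%) in the limma test. The median difference was 0.03 for the members and -0.03 for all probe sets, with extremes of -3.12 for Cox7a1 and 1.57 for Ndufa1, both dim. For Ndufb2 the difference was -0.25 ± 0.56 (SE), with a 95% interval of -1.52 to 1.03.

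Other genes of mitochondrial energy metabolism were read from 6 lists chosen by function. Slc25a4, the ADP/ATP carrier of the inner membrane that exports the product of complex V, rose with PD169316 over both tables, with a log2 ratio of 0.95 ± 0.19 (SE) and an adjusted p of 0.0135 in the combined limma test. The adjusted p was 0.00311 with the replicate block. It missed the threshold when the correlation of both tables was allowed for (0.144), without the intensity trend (0.150) and without a signal filter (0.111). Other floors, a higher minimum signal, median centring and quantile normalization kept it under the threshold. The call did not hold in every fit that left out control or PD169316 arrays. Such fits leave a single array in a group, so only their log2 ratios are given. With single S1 arrays left out the log2 ratio ran from 0.84 to 1.05, and it was 0.82 without the day 3 controls. It read 1509 and 1728 in the U74A controls, 3462 and 3466 under PD169316 and 2564 under SB203580. On U74Av2 it read 1730 and 2171 in the controls, 3885 and 2891 under PD169316 and 2352 and 1998 under SB203580, and in D4 2024 and 3121. It was 1 of 3 tested carriers and porins, where the background past the adjusted threshold was 1.88% of all probe sets. None of the 6 electron carriers, 9 assembly and synthesis genes, 7 transcription factors and regulators, 14 genes of the tricarboxylic acid cycle and pyruvate dehydrogenase or 53 mitochondrial ribosomal proteins passed with PD169316 over both tables. Of these, 3 ribosomal proteins were under an unadjusted p of 0.05 in the limma test, against a background of 11.6% of all probe sets. The median log2 ratio under PD169316 over both tables was 0.15 for the oxidative phosphorylation members. It was 0.43 for the 3 carriers and porins, 0.07 for assembly and synthesis and 0.05 for electron carriers. For the mitochondrial ribosomal proteins it was 0.01, for the tricarboxylic acid cycle list -0.02 and for the transcription factors and regulators -0.06. On U74A alone the ribosomal proteins had a median of 0.13 (38 of 54 higher), beside 0.26 for the members.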

How the data were processed

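Per the labels, the authors derived an intensity for each probe set with Microarray Suite 5.0, using global scaling to 300, and deposited these. Probe sets were named from GEO's platform annotation; those with several symbols (8 on U74A, 10 on U74Av2) were left out. All 72 members matched RefSeq by gene ID.

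Signals were floored at 32, converted to log2 and tested within each table by linear models (limma 3.58.1 under R 4.3.3; trended eBayes, two-sided, Benjamini-Hochberg), which understates changes of dim genes. For both tables, the sum of the z scores over the square root of 2 was used, and log2 ratios were averaged. The code was tested on simulated data. Python 3.11.15 with pandas 2.3.3 handled the tables.

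Named members were the 3 with the smallest p each way in each S1 comparison over both tables, the 3 largest D4 ratios each way, the brightest 2 and the dimmest of each complex, the Sdh genes and paralogous forms. Ndufb5, Ndufb9, Ndufb11, Cox5b, Cox7b and Atp5md were given values, and pair lists named, after their values were seen. Members and lists were chosen with earlier results of these data known.

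Same-numbered control and PD169316 arrays shared a hybridization day per the experiment files, and their replicate differences correlated (r 0.208 on U74A and 0.179 on U74Av2 over all tested probe sets), so the replicate block was an alternative fit; it is given beside Ndufb2, where it changed the call. The second SB203580 array of U74Av2 shared no day with its number. Other alternatives were normalization, filter, floor, variance trend, hybridization day, each array left out, probe set choice and, chosen after seeing the data, both day 3 controls left out.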

Additional observations from a re-analysis of the deposited data

How the results depend on the processing

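Over 27 settings, 233 of 237 alternative counts of members past the threshold stayed at 0, the count in every main comparison. Of 235 medians, 233 moved by less than the spread between arrays. That spread was 0.268 log2 units on U74A and 0.123 on U74Av2, larger than the PD169316 medians against control (0.265 and 0.066). Staying within it therefore does not show that a median is stable. Settings that left out an array outside a fit gave the same value by construction. For PD169316 against control over both tables, the replicate block and quantile normalization each called 1 member, Ndufb2, and the block moved the calls over all probe sets from 101 to 199; it changed no other call of a member. Without a signal filter, 1 member (Cox8a, at 16.5 and 12.5 under PD169316, 56.3 under SB203580, 23 and 27 in the controls) was called for SB203580 against control and 1 for PD169316 against SB203580 on U74A, from a fit that adds probe sets near the floor. Leaving out each array, the U74Av2 medians ran from -0.182 to 0.0148 for SB203580 against control and from 0.0562 to 0.304 for PD169316 against SB203580. For PD169316 against control they ran from 0.0863 to 0.341 on U74A, from -0.0159 to 0.135 on U74Av2 and from 0.0342 to 0.243 over both tables, and every count of members stayed at 0. Of 18 named log2 ratios over both tables, 6 (Cox4i1, Ndufv1 and Atp5a1 for PD169316 against control, Ndufb2 and Uqcrh for SB203580 against control, and Cox4i1 between the compounds) moved by over 1.5 times when an array was left out. The Cox4i1 difference between the compounds ran from -0.77 upward and turned positive, at 0.000375, without PD169316 replicate 2 of U74A; the cause was not tested. Arrays limit the precision, and dim members near the floor carry only rough ratios.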
